A study of Mus musculus with 6 samples.

Results

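The genes described here encode synaptic and leucine-rich adhesion molecules, 38 of the 55416 genes in the table. They were taken by symbol: the neuroligins Nlgn1 to Nlgn3, Lrrtm1 to Lrrtm4, Slitrk1 to Slitrk6, the SALM genes Lrfn1 to Lrfn5, the netrin-G ligand genes Lrrc4, Lrrc4b and Lrrc4c, Flrt1 to Flrt3, the latrophilins Adgrl1 to Adgrl4, the teneurins Tenm1 to Tenm4 and the contactins Cntn1 to Cntn6. Earlier results of these data were known when this set was chosen. RNA came from the ganglionic eminences, the ventral forebrain swellings that produce striatal neurons and cortical interneurons, of E13.5 mouse embryos (embryonic day). The 3 double knockout libraries came from embryos lacking Dlx1 and Dlx2, a pair of homeodomain transcription factor genes, and the 3 wild-type libraries from littermates. The strain, the knockout allele and any pooling of embryos were not given in the sources used here. Nothing in the labels says that the 3 libraries of a group came from separate litters, so p-values measure the spread between these libraries.

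These proteins sit on the surface of axons and dendrites and join cells across synapses and along growing axons. Neuroligins, LRRTMs, SLITRKs, SALMs and netrin-G ligands act mostly on the postsynaptic side, where they bind neurexins, receptor protein tyrosine phosphatases of the LAR family or netrin-G proteins on the axon. Teneurins, latrophilins and FLRTs bind one another and, through FLRTs, UNC5 receptors, and they also guide migrating neurons before synapses form. Contactins are anchored in the membrane by a lipid and work in axon growth and fasciculation, and Cntn1 and Cntn6 proteins have been described as ligands of Notch on oligodendrocyte precursors.

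Total counts ranged from 56618090 to 70114173 per library, and 3 reads corresponded to 0.0432 to 0.0520 CPM, read counts scaled to library size by TMM (trimmed mean of M values), a floor that covers counting error only. Dlx2 had 296 ± 16.1 CPM in wild-type and 8.68 ± 1.99 CPM in double knockout libraries (SD, n = 3), and Dlx1 had 439 ± 6.13 and 81.5 ± 10.8 CPM, so all libraries matched their labels. Double knockout replicate 3 stood apart from the other 2 of its group for these genes. It was the lowest of its group for 31 of the 38 members, against 38.9% of all tested genes. In wild-type replicate 2 this held for 26 members, against 36.8% of all tested genes. Summed markers of all neurons (15 genes) were at 5876 CPM in double knockout replicate 3, below 6675 and 6824 CPM in the other 2, and summed progenitor markers (10 genes) were at 3976 CPM, above 3332 and 3484 CPM. Regional markers differed there too. The hypothalamic and thalamic sum was 219 CPM against 261 and 252 CPM, and the GABAergic and interneuron sum 523 against 467 and 451 CPM. Within the former list Sim1 was at 2.95 CPM against 20.7 and 16.8 CPM. Gbx2 went the other way, at 15.7 against 9.53 and 8.44 CPM. The part of these differences in the values of the members was not tested. Results are given with and without this library for Cntn4, Cntn6, Adgrl3, Tenm3 and Tenm4 and for the counts of called and non-overlapping members. Log2 changes of the other members include it unless stated. Y-linked genes (4 in sum) were at 207 to 214 CPM in wild-type replicate 1 and double knockout replicates 2 and 3 and at 0.0155 to 0.171 CPM in the others, so both patterns occurred in both genotypes.

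All 38 genes had reads in every library, from 50 reads for Slitrk6 to 24235 for Adgrl1, and all 38 passed the filter on low counts. Per kilobase of exon (RPKM, from the TMM-scaled CPM), the most abundant in the wild type was Lrrc4b at 89.7 ± 4.69, a netrin-G ligand family gene whose protein binds LAR phosphatases. Nlgn2, the neuroligin of inhibitory synapses, followed at 47.7 ± 2.505 RPKM, then the latrophilin Adgrl1 at 43.4 ± 2.51 and Cntn2 at 34.2 ± 2.69 RPKM. The lowest were Cntn6 at 0.468 ± 0.0393 and Slitrk6 at 0.258 ± 0.0315 RPKM. A single gene made up most of the summed RPKM in 4 families other than the FLRTs: Lrrc4b was 87.7% ± 0.679 of the netrin-G ligands, Nlgn2 81.9% ± 1.20 of the neuroligins, Cntn2 81.4% ± 0.517 of the contactins and Adgrl1 62.6% ± 0.270 of the latrophilins. Exons of 12 of the 38 genes overlap another gene in GENCODE M21, 11 on the opposite strand and Nlgn3 on the same strand, which makes these counts uncertain. The 11 are Adgrl1, Adgrl2, Adgrl3, Cntn5, Lrfn2, Lrrtm2, Lrrtm4, Nlgn1, Tenm1, Tenm3 and Tenm4. Single overlaps on the opposite strand covered 1.08% to 25.1% of the exon bases of the member, the largest in Lrrtm4. That of Nlgn3 covered 41.2%.

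**Figure D1:**
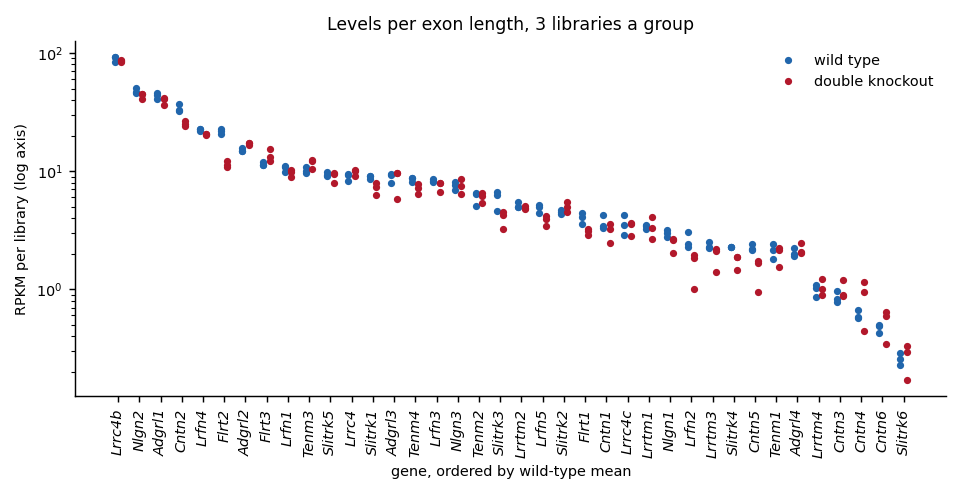
RPKM of the 38 adhesion genes in each library on a log axis, ordered by the wild-type mean, with wild-type libraries in blue and double knockout libraries in red. Levels run from Lrrc4b at 89.7 RPKM to Slitrk6 at 0.258 RPKM in the wild type.

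The comparison asked which adhesion genes differed in the eminences without Dlx1 and Dlx2. Of the 38 genes, 2 were lower in the double knockout and none was higher by edgeR's quasi-likelihood test (adjusted p under 0.05), against 2.68% of all 23628 tested genes, 1.34% lower and 1.34% higher. Those were Flrt2 and Cntn2. An unadjusted p under 0.05 was found for 15 members (39.5%), against 13.3% of all tested genes. The 2 groups did not overlap for 17 members (44.7%), against 19.5% of all tested genes, and 15 of these were lower (10.2% of all tested genes) and 2 higher (9.29%). All 38 members averaged at least 1 CPM. Among the 16486 tested genes at that level, 3.57% were called in edgeR and 15.9% had an unadjusted edgeR p under 0.05. The groups did not overlap for 22.4% of them. The median log2 change was -0.10 over the 38 members and -0.00161 over all tested genes, with a median size of 0.16 and 0.13. In bulk tissue, fewer cells of a type and less RNA per cell cannot be told apart.

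**Figure D2:**
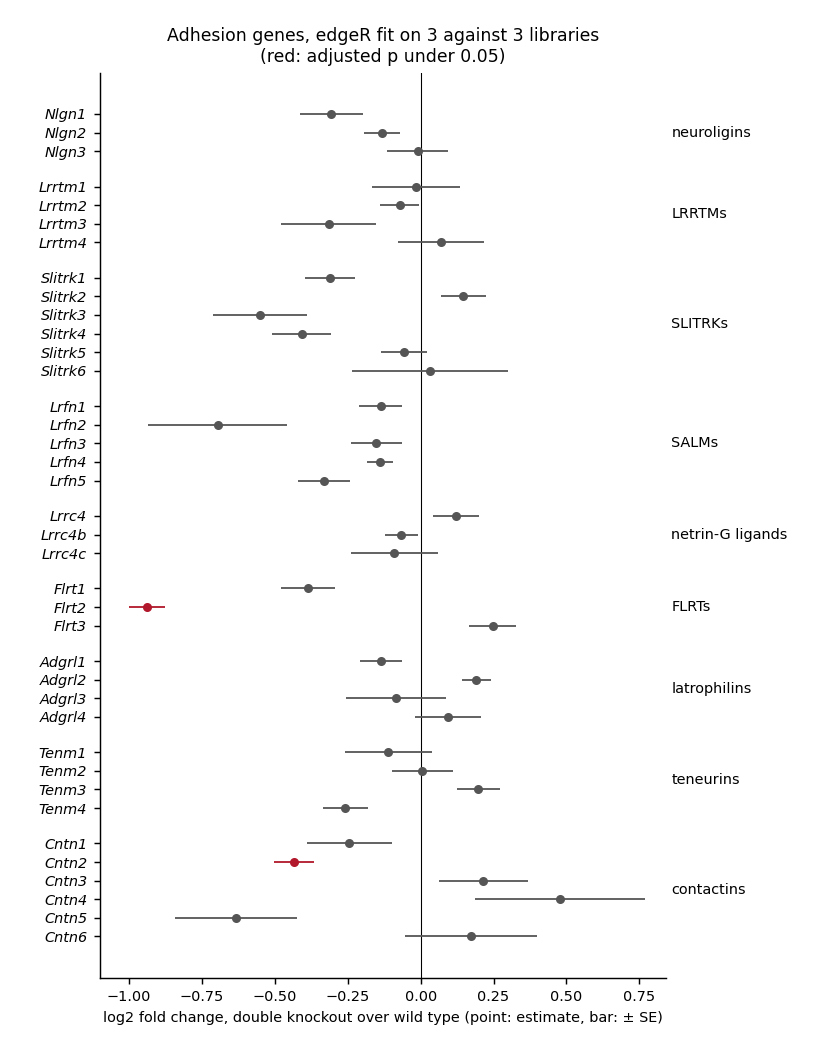
Log2 fold changes of the 38 adhesion genes, double knockout over wild type, with bars of 1 standard error (SE), grouped by family. Flrt2 at -0.94 and Cntn2 at -0.43, in red, are the 2 genes with an adjusted p under 0.05, and 26 of the 38 points lie below 0.

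Among the FLRTs, fibronectin and leucine-rich transmembrane proteins that steer migrating neurons through UNC5 receptors and latrophilins, Flrt2 fell to 52.2% of its wild-type mean. Flrt2 (ENSMUSG00000047414, on the plus strand at chr12:95692226-95785215 of GRCm38 in GENCODE M21) was at 177, 169 and 159.9 CPM in replicates 1 to 3 of the wild type, and at 82.9, 86.1 and 94.5 CPM in the same order in the double knockout. Every double knockout library lay far below every wild-type library. The log2 change was -0.94 (SE 0.0630, edgeR adjusted p of 1.396e-04). Flrt2 was called in each of 14 alternative analyses, with log2 changes from -0.99 to -0.90 and adjusted p values up to 0.00177. Flrt1 was at 25.8, 21.04 and 23.9 CPM in the wild type and at 16.8, 18.4 and 19.0 CPM in the double knockout. Its groups did not overlap either, but its log2 change of -0.39 missed the threshold (SE 0.0934, edgeR adjusted p of 0.0796). Flrt3 lay the other way, at 54.9, 57.8 and 54.4 CPM against 59.6, 64.3 and 74.3 CPM, without overlap. Its log2 change was 0.25 (SE 0.0804, edgeR adjusted p of 0.205).

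Per exon length, the leading FLRT gene was not the same in the 2 genotypes. Flrt2 made up 58.5% ± 0.872 of the summed FLRT RPKM in wild-type and 40.6% ± 0.863 in double knockout libraries, and Flrt3 30.7% ± 1.32 and 48.4% ± 1.18 (SD, n = 3). The share of Flrt1 was 10.8% ± 1.01 and 11.0% ± 0.444. Flrt2 was the larger of the pair in all 3 wild-type libraries and Flrt3 in all 3 double knockout libraries. The summed FLRT RPKM was at 36.0 to 38.6 in wild-type and 25.8 to 30.7 in double knockout libraries.

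The windows around the annotated starts of Flrt2 and Flrt3, from 250 bases before to 50 after, are shown because these paralogues lay in opposite directions, and that of Cntn2 because it is the other called gene. They are RefSeq sequences of build GRCm38.p6, at chr12:95691976-95692275 on the plus strand for Flrt2, chr2:140671427-140671726 on the minus strand for Flrt3 and chr1:132542891-132543190 on the minus strand for Cntn2. In GENCODE M21 Cntn2 starts further upstream, at 132543256, so its whole window lies inside the gene as annotated there. Capitals mark the homeodomain core ATTA (or TAAT) and the E-box CANNTG, both searched on either strand.
Flrt2: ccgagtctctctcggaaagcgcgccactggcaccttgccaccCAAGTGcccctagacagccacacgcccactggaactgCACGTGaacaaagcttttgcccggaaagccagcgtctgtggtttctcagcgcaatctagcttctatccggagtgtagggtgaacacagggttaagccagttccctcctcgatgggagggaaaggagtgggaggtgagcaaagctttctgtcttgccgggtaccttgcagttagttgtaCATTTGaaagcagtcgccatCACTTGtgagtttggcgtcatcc
Flrt3: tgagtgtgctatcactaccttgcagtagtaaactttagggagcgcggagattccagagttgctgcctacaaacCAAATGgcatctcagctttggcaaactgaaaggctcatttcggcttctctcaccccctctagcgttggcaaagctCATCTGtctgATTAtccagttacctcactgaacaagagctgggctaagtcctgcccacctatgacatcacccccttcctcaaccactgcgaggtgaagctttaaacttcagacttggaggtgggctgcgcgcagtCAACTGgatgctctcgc
Cntn2: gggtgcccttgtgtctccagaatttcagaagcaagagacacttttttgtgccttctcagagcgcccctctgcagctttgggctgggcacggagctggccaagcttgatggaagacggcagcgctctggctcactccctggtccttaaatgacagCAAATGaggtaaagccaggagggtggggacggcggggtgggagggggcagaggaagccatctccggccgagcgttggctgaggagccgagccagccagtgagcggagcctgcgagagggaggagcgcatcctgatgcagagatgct
The Flrt2 window held 4 E-boxes and no ATTA, the Flrt3 window 3 E-boxes and 1 ATTA, and the Cntn2 window 1 E-box and no ATTA. The longer homeodomain motif TAATTA, which contains ATTA, and the RBPJ motif TGGGAA were in none of the 3 windows. Among all 32851 windows of this length, 58.0% held ATTA, 5.29% TAATTA, 25.6% TGGGAA and 72.3% CANNTG. Windows were matched for 32 of the 38 members (all but Flrt1, Lrfn1, Lrfn2, Lrrtm2, Nlgn3 and Slitrk4), 42 windows in all, and 3 of these held TAATTA: those of Lrrc4, Tenm3 and 1 of the 2 of Cntn4. Matches of letters are a description and not evidence of binding.

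**Figure D3:**
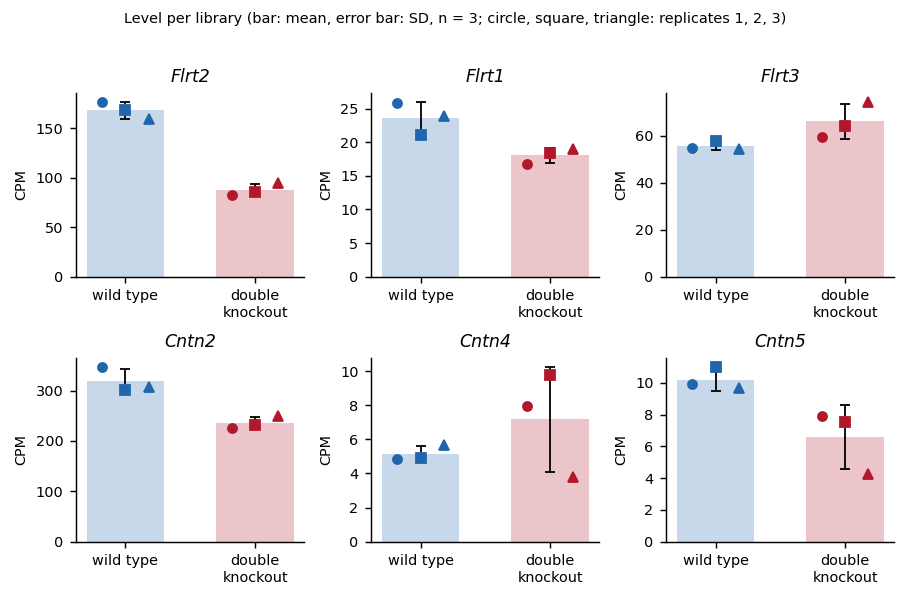
CPM of the 3 FLRT genes and of Cntn2, Cntn4 and Cntn5 in each library, with the mean as a bar and the SD as an error bar. The groups are separate for Flrt2, Flrt1, Flrt3, Cntn2 and Cntn5, and double knockout replicate 3 (triangle) is the lowest point for Cntn4 and Cntn5.

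Of the 6 contactins, Cntn2 fell and the other 5 did not pass the test. Cntn2 (TAG-1; ENSMUSG00000053024, on the minus strand at chr1:132509427-132543256 of GRCm38) encodes an adhesion protein of young axons. It was at 347, 301 and 308 CPM in wild-type and 225, 232 and 249 CPM in double knockout libraries. All 3 double knockout libraries were below the wild-type range. The log2 change was -0.43 (SE 0.0695, edgeR adjusted p of 0.0140). The call was lost without wild-type replicate 1 (edgeR adjusted p of 0.0506), without double knockout replicate 1 (0.0636) and without double knockout replicate 2 (0.0656), with log2 changes of -0.37, -0.40 and -0.43.

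The less abundant contactins spread widely. Cntn5, another axonal contactin, was at 9.89, 11.0 and 9.69 CPM in the wild type and 7.93, 7.54 and 4.27 CPM in the double knockout, without overlap. Its log2 change of -0.63 did not pass the test (SE 0.209, edgeR adjusted p of 0.211). Cntn4 was at 4.86, 4.90 and 5.66 CPM in the wild type and at 7.98, 9.76 and 3.79 CPM in the double knockout, where replicates 1 and 2 lay above and replicate 3 below every wild-type library. With all 6 libraries its log2 change was 0.48 (SE 0.292, edgeR adjusted p of 0.569). Without double knockout replicate 3 it was 0.79 (SE 0.131, edgeR adjusted p of 0.0152). Cntn6 had the same order, at 3.16, 2.75 and 3.23 CPM against 4.19, 3.88 and 2.23 CPM, but was not called with or without that library (edgeR adjusted p of 0.842 and 0.209). Cntn1 and Cntn3 overlapped between the groups, with log2 changes of -0.24 and 0.22. The summed contactin RPKM was at 40.0 to 45.7 in wild-type and 31.9 to 32.8 in double knockout libraries, and Cntn2 held most of it in every library.

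The latrophilins, adhesion receptors coupled to G proteins, and the teneurins, large transmembrane proteins that bind them, held no called gene. Adgrl2 was at 222, 209 and 209 CPM in wild-type and 245, 247 and 238 CPM in double knockout libraries. The groups did not overlap, and the log2 change of 0.19 missed the threshold (SE 0.0490, edgeR adjusted p of 0.0973). Adgrl3 was at 167, 141 and 165 CPM against 171, 171 and 104 CPM, so double knockout replicate 3 alone lay low. Its log2 change was -0.08 with all libraries and 0.12 without that one. Adgrl1 overlapped, with a log2 change of -0.14 (SE 0.0710). Adgrl4, a receptor of endothelial cells named with the latrophilins, was at 10.3, 8.83 and 9.05 CPM against 9.42, 9.22 and 11.4 CPM, with overlap. The summed vascular markers (7 genes) also overlapped, at 152 to 185 and 166 to 194 CPM.

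Tenm4 was at 184, 169 and 186 CPM in wild-type and 134, 151 and 165 CPM in double knockout libraries, below all wild-type libraries. Its log2 change was -0.26 (SE 0.0779, edgeR adjusted p of 0.165), and -0.33 without double knockout replicate 3, where the adjusted p was 0.0313. Tenm3 was at 104, 98.2 and 111 CPM against 127, 124 and 107 CPM, where only double knockout replicate 3 lay inside the wild-type range. Its log2 change was 0.20 (SE 0.0749, edgeR adjusted p of 0.286), and without that library 0.28 (adjusted p of 0.0338). Tenm3 made up 37.97% ± 1.45 of the summed teneurin RPKM in wild-type and 43.5% ± 2.20 in double knockout libraries, and Tenm4 31.9% ± 0.788 and 26.7% ± 3.93. The summed teneurin RPKM was 26.8 ± 2.03 and 26.8 ± 1.398. Tenm1 and Tenm2 overlapped, with log2 changes of -0.11 and 0.01.

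**Figure D4:**
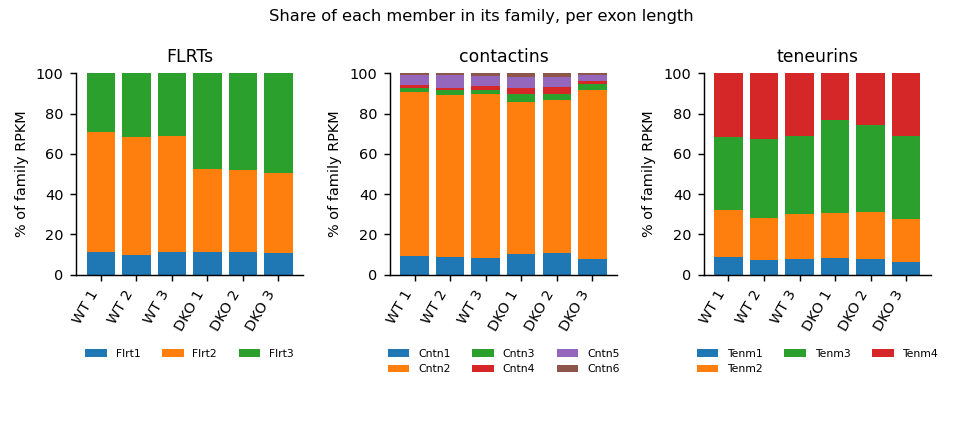
Share of each gene in the summed RPKM of its family, in percent, for the FLRTs, contactins and teneurins in the 3 wild-type (WT) and 3 double knockout (DKO) libraries. Flrt2 makes up 58.5% of the FLRTs in the wild type and 40.6% in the double knockout on average, and Cntn2 runs from 75.7% to 84.1% of the contactins.

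Among the postsynaptic organisers, no gene passed the test. Nlgn1, the neuroligin of excitatory synapses, was at 42.9, 40.3 and 37.4 CPM in the wild type and 34.8, 35.6 and 27.1 CPM in the double knockout, without overlap. Its log2 change was -0.31 (SE 0.107, edgeR adjusted p of 0.240). Nlgn2 was at 272, 264 and 292 CPM against 259, 261 and 236 CPM, also without overlap, with a log2 change of -0.13 (edgeR adjusted p of 0.420). Nlgn3 overlapped, at 70.05 ± 5.55 and 69.5 ± 10.3 CPM.

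The LRRTMs, neurexin-binding proteins of excitatory synapses, summed to 11.9 ± 0.539 RPKM in wild-type and 11.2 ± 1.35 in double knockout libraries. Lrrtm3 did not overlap, at 10.8, 9.58 and 9.77 CPM against 9.04, 9.22 and 5.95 CPM, with a log2 change of -0.32 (SE 0.163, edgeR adjusted p of 0.475). Lrrtm1, Lrrtm2 and Lrrtm4 overlapped, with log2 changes of -0.02, -0.07 and 0.07. Lrrtm1, Lrrtm2 and Lrrtm3 lie inside the alpha-catenin genes Ctnna2, Ctnna1 and Ctnna3, on the opposite strand. Those host genes were not called either, with log2 changes of -0.05, 0.20 and 0.70. Ctnna3 was near the detection limit, at 0.122 ± 0.103 and 0.203 ± 0.119 CPM. Of the 38 genes, 8 lie inside a gene on the opposite strand, and none of the 8 host genes was called.

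The SLITRKs bind LAR phosphatases on the axon. Slitrk4 was at 20.06, 19.97 and 20.05 CPM in the wild type and at 16.2, 16.3 and 12.8 CPM in the double knockout. The groups were well apart, but the log2 change of -0.41 missed the threshold (SE 0.102, edgeR adjusted p of 0.0888). Slitrk3, which acts at inhibitory synapses, was at 32.1, 22.3 and 30.3 CPM against 21.8, 20.5 and 15.6 CPM, with a log2 change of -0.55 (SE 0.161, edgeR adjusted p of 0.152). Slitrk1 was at 48.7, 46.1 and 48.4 CPM against 39.6, 42.4 and 33.4 CPM, with a log2 change of -0.31 (SE 0.0867, edgeR adjusted p of 0.132). These 3 were the SLITRK genes without overlap, each lower in all double knockout libraries. Slitrk2, Slitrk5 and Slitrk6 overlapped, with log2 changes of 0.15, -0.06 and 0.03.

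All 5 SALM genes, whose proteins organise excitatory synapses, had negative log2 changes, from -0.70 to -0.14, and none was called. Lrfn2 was at 9.84, 7.23 and 7.73 CPM in the wild type and 6.25, 5.84 and 3.23 CPM in the double knockout, with a log2 change of -0.70 (SE 0.237, edgeR adjusted p of 0.228). Lrfn5 was at 49.1, 41.9 and 47.5 CPM against 37.5, 39.9 and 32.8 CPM, with a log2 change of -0.33 (SE 0.0892, edgeR adjusted p of 0.117). Lrfn4 was at 76.0 ± 1.56 and 69.0 ± 1.03 CPM (edgeR adjusted p of 0.195). These 3 and Lrfn3 did not overlap between the groups, and Lrfn1 did. The netrin-G ligand genes Lrrc4, Lrrc4b and Lrrc4c all overlapped, with log2 changes of 0.12, -0.07 and -0.09. Lrrc4b was at 263 ± 13.7 and 251 ± 6.31 CPM.

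Without double knockout replicate 3, 5 members were called in edgeR in place of 2, against 3.09% of all genes tested in that fit. These were Flrt2, Cntn2 and Tenm4, lower (1.48% of all), and Cntn4 and Tenm3, higher (1.61%). By DESeq2 in place of edgeR, 10 members were called (4.92% of all genes), 9 of them lower (2.41%) and Adgrl2 higher (2.51%), and in edgeR with no filter on low counts 4 were called (2.31%). Without double knockout replicate 3, 23 members did not overlap between the groups (32.4% of all tested genes), 15 of them lower (16.9%) and 8 higher (15.5%). In that replicate Cntn4, Lrfn2 and Cntn5 deviated most from the mean of the other 2 double knockout libraries, by -1.13, -0.81 and -0.79 in log2 with 0.5 CPM added. Flrt2 (0.16), Cntn2 (0.12) and Tenm4 (0.21) deviated upward there. The summed pan-neuronal markers were also lowest of the group in that library, though Elavl3 and Nefm among them were highest there. The part of these markers in the deviations was not tested.

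**Figure D5:**
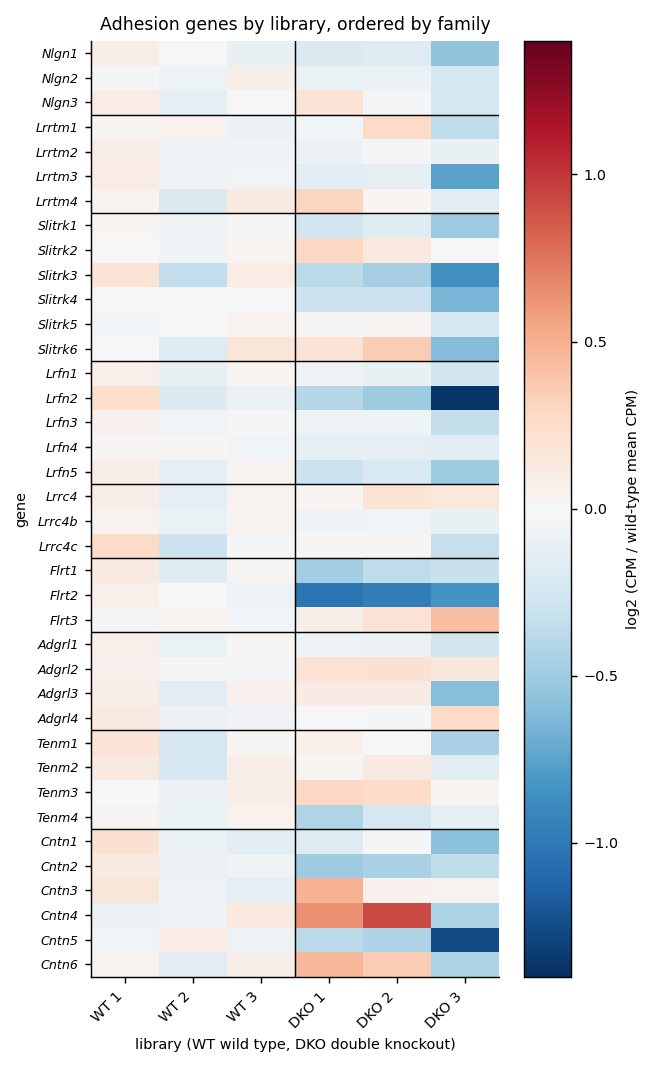
Log2 ratio of CPM in each library to the wild-type mean for the 38 adhesion genes, ordered by family, with blue for lower and red for higher. Flrt2 is blue in all 3 double knockout (DKO) libraries, and the column of DKO 3 is the lowest of its group for 31 of the 38 genes.

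Genes for binding partners of these molecules were examined as a list. Of 48 partner genes, 9 were called in edgeR (18.8%), 5 higher and 4 lower, against 2.68% of all tested genes. The list was drawn up with earlier results of these data known, so this share only describes the list. Among 13 presynaptic receptors and ligands, Nrxn3, a neurexin bound by neuroligins and LRRTMs, was at 214, 193 and 205 CPM against 67.0, 82.0 and 66.7 CPM. It fell in every double knockout library, with a log2 change of -1.51 (SE 0.0861, edgeR adjusted p of 5.75e-05). Nrxn2 was not called, with a log2 change of -0.30. Unc5b, a receptor for FLRTs and netrins, rose from 20.8 ± 0.581 to 30.2 ± 1.49 CPM, with a log2 change of 0.54 (SE 0.0675, edgeR adjusted p of 0.00409). The other UNC5 genes did not pass the test, and Unc5d, a receptor for FLRT2 protein, was at 48.5 ± 6.54 and 37.8 ± 7.13 CPM. Gpc4, a heparan sulfate proteoglycan bound by LRRTM4 protein, rose by 0.66 on the log2 scale (edgeR adjusted p of 0.00141). Ntng1, whose protein netrin-G1 binds the Lrrc4c protein, rose by 0.71 (edgeR adjusted p of 0.0413).

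Among 15 contactin partners, Cntnap3, of the Caspr family, fell from 7.58 ± 1.38 to 0.797 ± 0.116 CPM, with a log2 change of -3.25 (edgeR adjusted p of 6.57e-05). Cntnap5c of the same family fell by 1.19 on the log2 scale (edgeR adjusted p of 0.0344), and Ptprz1, a phosphatase of radial glia and oligodendrocyte precursors that binds Cntn1 protein, rose by 0.56 (edgeR adjusted p of 0.00141). Of the 8 cofactors and inhibitors, Mdga1, whose protein blocks neuroligins from binding neurexins, rose from 69.7 ± 6.52 to 104 ± 7.69 CPM, with a log2 change of 0.58 (SE 0.0801, edgeR adjusted p of 0.00699). Of the 12 postsynaptic scaffold genes, Dlg3 alone was called, with a log2 change of -0.23 (SE 0.0447, edgeR adjusted p of 0.0351), and 11 of the 12 values were negative.

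Several lists of cell markers also differed between the genotypes, and their part in the values of the adhesion genes was not tested. The marker lists too were drawn up with earlier results of these data known. Of the 15 pan-neuronal markers, 2 were called, Snap25 and Elavl3, both lower, and the median log2 change of the list was -0.18. Their summed level was at 7131 to 7666 CPM in wild-type and 5876 to 6824 CPM in double knockout libraries, without overlap. The 10 progenitor markers had a median of 0.27 and the summed level 2838 to 3203 and 3332 to 3976 CPM, and 1 of them, Hes5, was called higher. Of the 12 GABAergic and interneuron markers 11 were called lower and 1 higher, with a median of -1.42, and of the 12 striatal markers 10 lower and 1 higher, with a median of -1.09. Of the 7 oligodendrocyte precursor markers 6 were called higher, with a summed level of 78.2 to 79.8 CPM in wild-type and 146 to 189 CPM in double knockout libraries. Of the 7 hypothalamic and thalamic markers 2, Otp and Hmx3, were called higher, with a summed level of 89.3 to 103 and 219 to 261 CPM over the list. Of the 10 cortical excitatory markers only Neurod2 was called, lower, while 9 log2 changes were negative and 1 positive, with a median of -0.30. The summed cortical level was at 1032 to 1048 CPM in wild-type and 800 to 830 CPM in double knockout libraries, without overlap. The summed microglial, meningeal and blood markers overlapped between the groups, with none of their genes called in edgeR and none at an unadjusted p under 0.05. No marker list had a member missing from the table or under the filter.

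Per 1000 CPM of the summed pan-neuronal markers, Flrt2 was at 23.0, 23.6 and 21.4 in the wild type and 12.1, 12.9 and 16.1 in the double knockout, still without overlap. Cntn2 was at 45.3, 42.1 and 41.3 against 33.0, 34.8 and 42.4, and double knockout replicate 3 then lay inside the wild-type range. On this scale 18 members did not overlap (32.8% of all tested genes). Of these 4 were lower (2.42% of all tested genes), Flrt2, Cntn5, Lrfn2 and Slitrk4, and 14 were higher (30.4% of all tested genes). The scale itself raises the median log2 ratio of all tested genes to 0.204, and that of the members was 0.0936.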

How the data were processed

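Total RNA of the ganglionic eminences was sequenced in 6 libraries, from a stranded kit with ribosomal RNA depletion, per the labels' protocols. The authors deposited whole-number read counts per gene, not normalised. featureCounts and GRCm39 are named in the submitters' processing notes. The aligner, annotation release and strand setting were not given in the sources used here. All columns of per-library values were used.

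Low counts were removed by filterByExpr of edgeR 4.0.16 (minimum count 10, minimum total 15), scaled by TMM and tested with the quasi-likelihood test in R 4.3.3, with a prior count of 0.125 and Benjamini-Hochberg adjustment over 23628 genes. A gene was called at an adjusted p under 0.05. SE is the coefficient divided by the square root of F. Counts were simulated for this comparison over 23628 genes. At a mean of at least 1 CPM, edgeR recovered 86.7% of log2 changes of 1 and 41.5% of changes of 0.5. Without that limit it recovered 69% and 27%, and 4% of its calls were false, against 16.8% for DESeq2 1.42.0. The simulated spread followed only the trend with the mean level and had no library like double knockout replicate 3, so real rates may differ. No pair of libraries within a group held identical counts, and their chi-square per gene was 13.1 to 36.4, above sampling noise. Exon lengths, overlaps and host genes came from GENCODE M21 (GRCm38), a different build from the one named in the notes, so RPKM levels are approximate.

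The members, the partner and marker lists and the alternatives were chosen with earlier results of these data known. Named genes are all members, Dlx1 and Dlx2, and up to 3 called genes per role and direction with the largest change among partners and markers. Called markers of the GABAergic, striatal and oligodendrocyte precursor lists are given without names. Genes named beyond this rule (Nrxn2, Unc5d, Nefm, Sim1, Gbx2 and the host genes) were chosen after their values were seen. Of 16 contactin partners listed, Ptprg was not analysed here. The labels' replicate numbers do not name litters. Alternatives were other scalings, filters and tests (limma-voom from limma 3.58.1 among them), a replicate block, a Y-linked covariate and leaving out each library.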

Additional observations from a re-analysis of the deposited data

How the results depend on the processing

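Flrt2 was called in all 14 alternatives and Cntn2 in 11, all but those without wild-type replicate 1 and without double knockout replicate 1 or 2. Of the 38 members 25 were called in no alternative. The 2 called members became 10 with DESeq2 (1162 genes in all, 4.92%), adding Flrt1, Slitrk1, Slitrk3, Slitrk4, Lrfn2, Lrfn5 and Cntn5 as lower and Adgrl2 as higher. They became 4 with no filter on low counts (874 genes, 2.31%), with Flrt1 and Slitrk3 added. Leaving out 1 library gave 1 to 5 called members, 6 to 10 called partners and 309 to 749 called genes in all, and the lowest, 309, was without wild-type replicate 1. With the Y-linked covariate 359 genes were called in all, and Flrt2 and Cntn2 remained among them. Total count scaling called 390 genes higher and 256 lower, against 317 and 317, and called the same 2 members. For each of these the cause was not tested.

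No pairing by replicate number was seen: the deviations of same-numbered libraries correlated at -0.0629, -0.0013 and 0.0350. Wild-type replicate 1 correlated best with double knockout replicate 2 (0.135) and wild-type replicate 3 with double knockout replicate 1 (0.102). With so few libraries, these values cannot show whether any shared a litter or batch. With the replicate block 690 genes were called in all and the same 2 members, Flrt2 with a log2 fold change of -0.94 and Cntn2 with -0.43, and 8 partners in place of 9.

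No called member changed sign. Of 532 pairs of a member and an alternative, 26 had the opposite sign, all in 10 members with values near 0. Nlgn3 was at 0.0203 with total count scaling, 2.40e-04 with no filter, 0.0025 with the filter at a mean of 1 CPM and 0.00898 with the Y-linked covariate. Lrrtm1 was at 0.014 with total count scaling, Slitrk6 at -0.033 in limma-voom and -0.0025 with the replicate block, and Tenm2 at -0.016 with the Y-linked covariate. Without 1 library the log2 fold changes ran from -0.20 to 0.12 for Adgrl3, -0.0014 to 0.16 for Adgrl4, -0.22 to 0.061 for Lrrc4c, -0.19 to 0.14 for Lrrtm1, -0.063 to 0.18 for Lrrtm4, -0.12 to 0.098 for Nlgn3, -0.11 to 0.033 for Slitrk5, -0.16 to 0.28 for Slitrk6, -0.22 to 0.043 for Tenm1 and -0.10 to 0.085 for Tenm2. Members whose groups did not overlap numbered 19 to 23 when a library was left out (26.3% to 32.4% of all tested genes), 14 with total count scaling (19.3%) and 18 per pan-neuronal level (32.8%), against 17 (19.5%) in the main analysis. These alternatives were added after the data were seen. The simulated log2 changes were 0.5 and 1, and the median size over the members, 0.16, was below both.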

Other observations

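Double knockout replicate 3 differed from the other 2 libraries of its group most in long genes. Among tested genes averaging 1 CPM or more, the median log2 ratio of this library to the mean of the other 2 was 0.0415 for 8576 genes spanning under 20 kb and -0.202 for 514 genes spanning over 300 kb. The 13 adhesion genes over 300 kb, among them Cntn4, Cntn5, Tenm2 and Lrrc4c, had a median of -0.329, and 12 of the 13 were below 0. The 13 adhesion genes under 20 kb had a median of -0.254, and 12 of these were also below 0. The 6 from 20 to 100 kb had a median of 0.0310, with 3 below 0, and the 6 from 100 to 300 kb one of -0.255, with 4 below 0.

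Each of the 4 X-linked members, Nlgn3, Slitrk2, Slitrk4 and Tenm1, was uncalled in edgeR both without and with the Y-linked covariate. With it fewer genes were called in all, 359 against 634. An effect of sex on these members was not tested.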
